A study of Mus musculus with 14 samples.

Results

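Luminal progenitor genes are 6 genes by which the progenitor of the milk-secreting lineage of the mouse mammary gland is recognised: *Elf5*, *Ehf*, *Kit*, *Cd14*, *Aldh1a3* and *Ltf*. They were chosen by symbol as known markers of that cell. All 6 were counted in both tables, among 17702 genes in the table of the *Lats2* experiment and 17763 in that of the *Lats1* experiment, of which 17232 were in both. The *Lats2* experiment compared 4 *Lats2*-CKO PyMT tumors, 3 carcinomas and 1 adenoma, with 3 WT-PyMT littermate tumors, 1 carcinoma and 2 adenomas. The *Lats1* experiment compared 4 *Lats1*-CKO PyMT tumors, 2 carcinomas, 1 adenosquamous carcinoma and 1 adenoma, with 3 other WT-PyMT littermate tumors, 1 carcinoma and 2 adenomas. Every mouse of both experiments carried the polyomavirus middle T antigen (PyMT), an oncogene driven in mammary epithelium by the MMTV promoter, so the WT-PyMT samples are tumors too and not normal gland. In the CKO mice a Cre recombinase active in the mammary gland, from an MMTV-Cre transgene in the *Lats1* cross, deletes exon 5 of *Lats2* or exon 4 of *Lats1*. Reads of the other exons still count, and cells in which the Cre was not active keep the whole gene. Tumors were examined in mice 3 months old, but the labels of these samples give neither age nor strain, and do not say whether WT-PyMT mice carried Cre. Tumors of the *Lats2* experiment came from separate mice by the study's own description. For the *Lats1* experiment the sources used here do not say so, and some of its tumors may share a mouse. Its p-values measure the spread between these tumors only, which may then be less than that between mice.

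Luminal cells of the mammary gland fall into hormone-sensing cells, which carry estrogen and progesterone receptors, and a hormone receptor-negative branch that holds the luminal progenitors and the alveolar cells they give rise to in pregnancy. The progenitors are isolated from mouse glands by surface proteins such as KIT and CD14, and show aldehyde dehydrogenase activity. They express ELF5, an ETS transcription factor that acts below the prolactin receptor to drive alveolar development. They are also a candidate cell of origin of several kinds of mammary tumor. Expression was measured in RNA of whole tumors, in which fewer cells of a type and less RNA per cell cannot be told apart.

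ELF5 and EHF belong to the same ETS family and bind DNA around a GGAA core, so the 250 bases upstream of the RefSeq start sites of the members were searched on both strands for AGGAAG, 1 form of that core. Windows of 3 of the 6 members were searched (*Elf5*, *Kit* and *Ltf*), and those of the other members were not. *Kit* and *Ltf* each hold 1 match, and neither window of *Elf5* holds one. The first 150 of the 250 bases of the *Kit* and *Ltf* windows are shown because they hold the matches, in the direction of transcription and with the motif in capitals (RefSeq, GRCm38.p6, *Kit* at chr5:75574737-75574886 and *Ltf* at chr9:111019042-111019191, both on the plus strand).
*Kit*: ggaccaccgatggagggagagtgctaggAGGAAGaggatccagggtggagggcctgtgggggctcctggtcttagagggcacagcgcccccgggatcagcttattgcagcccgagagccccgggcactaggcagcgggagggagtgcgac
*Ltf*: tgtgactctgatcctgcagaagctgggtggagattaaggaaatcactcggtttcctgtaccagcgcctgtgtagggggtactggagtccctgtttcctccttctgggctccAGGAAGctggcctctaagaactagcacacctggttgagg
The motif begins 222 bases before the start site in *Kit* and 139 bases before it in *Ltf*. Of 32851 such windows over all genes, 29.5% hold the motif, so a match is common. Binding was not measured in these tumors.

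Library totals ranged from 18593864 to 31909282 counts. *Lats1*, the kinase gene deleted in the *Lats1* cross, had 34.4, 36.9, 38.3 and 32.9 CPM (counts scaled to the library total with TMM factors) in *Lats1*-CKO tumors against 128, 123 and 108 CPM in WT-PyMT tumors, and the gene fell in the *Lats1*-CKO tumors (log2 fold change -1.75, adjusted p = 0.00364 from edgeR). *Lats2* had 32.5, 8.26, 10.6 and 15.9 CPM in *Lats2*-CKO tumors 1, 7, 8 and 16 against 23.0, 28.9 and 53.3 CPM in WT-PyMT tumors, so that the library labelled *Lats2*-CKO 1 lay within the WT-PyMT range and the gene did not pass the test (log2 fold change -1.06, adjusted p = 0.688 from edgeR). Some libraries stood apart in markers of other cells, given here as the mean log2 CPM of each marker list. WT-PyMT 14 had 7.28 for T and NK cells and 7.07 for B and plasma cells, with 6.62 for epithelium, and WT-PyMT 22 had 5.22, 5.55 and 8.52. In the other 12 libraries the T and NK cell list lay between -0.59 and 2.54 and the epithelial list between 7.82 and 8.71. In adipocyte genes WT-PyMT 2 and 14 had 8.73 and 8.23, and the other 12 libraries -0.99 to 6.59. All 10 adipocyte genes had lower fitted levels in *Lats2*-CKO tumors (median log2 fold change -4.64, 9 at an unadjusted p under 0.05, 0 called), in *Lats1*-CKO tumors (median -2.41, 2 and 0) and in carcinomas set against adenomas (median -3.11, 9 and 0). Over all genes 7.08%, 11.3% and 3.56% had such an unadjusted p, in the same order. The part of these cells in the values of the members was not tested. *Lats2*-CKO 7 was highest in milk genes (11.34) and skeletal muscle genes (7.93), and the adenosquamous *Lats1*-CKO 21 in squamous genes (4.60).

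Of the 6 genes 5 were highly expressed in these tumors. Set per length, as RPKM (CPM per kilobase of exon), *Ltf* was the highest of the 6 with a mean of 614 RPKM in the *Lats2* experiment and 277 in the *Lats1* experiment, more than almost any other gene (0.171% and 0.387% of genes were higher). *Cd14* averaged 135 and 107 RPKM, *Ehf* 132 and 135, *Elf5* 103 and 125, and *Kit* 54.0 and 41.0. *Aldh1a3* was far lower, at 5.98 and 5.76 RPKM, with 43.9% and 44.8% of genes above it. The spread between tumors differed between the genes too. Within groups the SD of log2 CPM was 2.97 for *Ltf* in the *Lats2* experiment, where 0.629% of 13832 genes with at least 1 CPM had a larger one, and 0.71 in the *Lats1* experiment. For *Ehf* it was 0.91 and 0.23, against a median over genes of 0.40 and 0.24.

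The first question was whether tumors labelled *Lats2*-CKO or *Lats1*-CKO differed from WT-PyMT tumors in these genes. In the *Lats2* comparison all 6 had a higher fitted level in *Lats2*-CKO than in WT-PyMT tumors, with log2 fold changes of 0.067 (*Ehf*) to 1.20 (*Ltf*) and a median of 0.59, beside a median of -0.00279 over all genes. None of the 6 passed the test (edgeR quasi-likelihood, Benjamini-Hochberg adjusted p under 0.05), which called 0% of 17702 genes. At an unadjusted p under 0.05 the same test counted 0 of the 6, beside 208 genes higher and 1046 lower (7.08% of all), and DESeq2 called 0 of the 6 and 138 genes in all. In the *Lats1* comparison 1 of the 6 was higher and 5 were lower in *Lats1*-CKO than in WT-PyMT tumors, with log2 fold changes of -0.43 (*Ltf*) to 0.017 (*Kit*) and a median of -0.15, beside -0.00287 over all genes. Again none passed edgeR's test, which called 0.0225% of 17763 genes, 4 in number. At an unadjusted p under 0.05 it counted 0 of the 6, beside 846 genes higher and 1169 lower (11.3%), and DESeq2 called 0 of the 6 and 588 genes in all. The CKO and WT-PyMT tumors overlapped for each of the 6 genes in both comparisons, where 3.69% of all genes in the *Lats2* and 11.3% in the *Lats1* experiment had groups that did not overlap.

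*Elf5*, the regulator of the alveolar lineage (chr2:103411688-103450989, plus strand, GRCm38), had 359.8, 1420.4, 641 and 568 CPM in *Lats2*-CKO tumors 1, 7, 8 and 16, against 569.7, 489 and 171 CPM in WT-PyMT tumors 1, 2 and 14. The adenoma *Lats2*-CKO 7 was the highest of all 14 tumors and WT-PyMT 14 the lowest, and the rest of the 2 groups shared 1 range. Means were 747 ± 464 CPM in *Lats2*-CKO and 410.2 ± 211 CPM in WT-PyMT tumors (SD, n = 4 and 3), with a fitted log2 fold change of 0.87 (95% interval -0.49 to 2.22, standard error 0.58, edgeR adjusted p = 0.737). Leaving out 1 tumor at a time gave 0.34 (without *Lats2*-CKO 7) to 1.16 (without WT-PyMT 1), and 0.50 without WT-PyMT 14. In the *Lats1* experiment *Elf5* had 887, 816, 592 and 466 CPM in *Lats1*-CKO tumors 14, 18, 21 and 27, against 856, 796 and 745 CPM in WT-PyMT tumors 17, 20 and 22. The 3 WT-PyMT tumors lay close together, and *Lats1*-CKO tumors fell on both sides of them, with the adenosquamous carcinoma 21 and the adenoma 27 below. The log2 fold change was -0.21 (95% interval -0.74 to 0.32, standard error 0.22, edgeR adjusted p = 0.755), and with 1 tumor left out -0.34 (without *Lats1*-CKO 14) to -0.062 (without *Lats1*-CKO 27).

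*Ehf* encodes another epithelial ETS factor and lies next to *Elf5* on chromosome 2 (chr2:103263433-103303278, minus strand). It had 484, 836, 818 and 875 CPM in *Lats2*-CKO tumors 1, 7, 8 and 16, against 1130.3, 832 and 195 CPM in WT-PyMT tumors 1, 2 and 14. Both extremes of the experiment were WT-PyMT tumors, the carcinoma 1 at the top and the adenoma 14 at the bottom. The log2 fold change was 0.067 (95% interval -1.22 to 1.35, standard error 0.55, edgeR adjusted p = 0.973), and with 1 tumor left out -0.38 (without WT-PyMT 14) to 0.54 (without WT-PyMT 1). In the *Lats1* experiment *Ehf* varied least of the 6, with 838, 848, 649 and 599.5 CPM in *Lats1*-CKO tumors 14, 18, 21 and 27, against 837, 827 and 676 CPM in WT-PyMT tumors 17, 20 and 22. Its log2 fold change of -0.088 (95% interval -0.47 to 0.30, standard error 0.16, edgeR adjusted p = 0.869) has the narrowest interval among the members, whose bounds correspond to 0.721-fold and 1.23-fold of the WT-PyMT level.

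*Kit* encodes the receptor tyrosine kinase for stem cell factor (chr5:75574916-75656722, plus strand). It had 294, 437, 652 and 814 CPM in *Lats2*-CKO tumors 1, 7, 8 and 16, against 534, 445 and 192 CPM in WT-PyMT tumors 1, 2 and 14. The *Lats2*-CKO carcinomas 8 and 16 were the 2 highest of the experiment, while *Lats2*-CKO 1 and 7 lay within the WT-PyMT range. Means were 549 ± 230.0 CPM in *Lats2*-CKO and 390.2 ± 178 CPM in WT-PyMT tumors (SD, n = 4 and 3), with a fitted log2 fold change of 0.49 (95% interval -0.58 to 1.57, standard error 0.46, edgeR adjusted p = 0.786) that was 0.17 (without WT-PyMT 14) to 0.76 (without WT-PyMT 1) with 1 tumor left out. In the *Lats1* experiment *Kit* had 335, 406, 241 and 486 CPM in *Lats1*-CKO tumors 14, 18, 21 and 27, against 412, 411 and 265 CPM in WT-PyMT tumors 17, 20 and 22. Group means were within 5 CPM of each other, 367 ± 105 in *Lats1*-CKO and 363 ± 84.8 in WT-PyMT tumors (SD, n = 4 and 3), and the log2 fold change was 0.017 (95% interval -0.60 to 0.63, standard error 0.26, edgeR adjusted p = 0.987). The mast cell list, which marks another cell type that carries KIT, had a summed level of 0.653 to 4.01 CPM in *Lats2*-CKO and 0.859 to 9.10 CPM in WT-PyMT tumors of the first experiment, and 0.355 to 8.00 CPM in *Lats1*-CKO and 2.698 to 8.11 CPM in WT-PyMT tumors of the other.

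*Cd14* encodes a surface co-receptor for bacterial lipopolysaccharide, made by macrophages as well as by luminal progenitors, and lies on chromosome 18 (chr18:36725067-36726798, minus strand). It had 68.3, 649, 133 and 265 CPM in *Lats2*-CKO tumors 1, 7, 8 and 16, against 199.5, 251 and 66.4 CPM in WT-PyMT tumors 1, 2 and 14. The adenoma *Lats2*-CKO 7 was more than 2 times any other tumor of the series, and *Lats2*-CKO 1 was close to the lowest. The log2 fold change was 0.69 (95% interval -1.16 to 2.55, standard error 0.79, edgeR adjusted p = 0.811). With 1 tumor left out it was -0.16 (without *Lats2*-CKO 7) to 1.07 (without WT-PyMT 2), the lowest being of opposite direction, and 0.31 without WT-PyMT 14. In the *Lats1* experiment *Cd14* had 225, 126, 156 and 148 CPM in *Lats1*-CKO tumors 14, 18, 21 and 27, against 224, 263 and 153 CPM in WT-PyMT tumors 17, 20 and 22, with the WT-PyMT adenoma 20 highest. Its log2 fold change of -0.38 (95% interval -0.95 to 0.19, standard error 0.24, edgeR adjusted p = 0.573) had the lowest adjusted p among the members in that comparison, and was -0.57 (without WT-PyMT 22) to -0.19 (without WT-PyMT 20) with 1 tumor left out. The macrophage list (10 genes measured of 10, none at 0 in any library) had a summed level of 675 to 1168 CPM in *Lats2*-CKO and 558 to 1063 CPM in WT-PyMT tumors of that experiment, and 415 to 887 CPM in *Lats1*-CKO and 515 to 979 CPM in WT-PyMT tumors of the other. The part of macrophages in the *Cd14* values was not tested.

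*Aldh1a3* encodes an aldehyde dehydrogenase that makes retinoic acid and contributes to the enzyme activity by which progenitors are sorted (chr7:66390890-66427517, minus strand). It had 10.0, 14.6, 51.4 and 41.7 CPM in *Lats2*-CKO tumors 1, 7, 8 and 16, against 44.7, 14.5 and 16.3 CPM in WT-PyMT tumors 1, 2 and 14. Values split within both groups: carcinomas *Lats2*-CKO 8 and 16 and WT-PyMT 1 were above 40 CPM and the other 4 tumors under 17 CPM, *Lats2*-CKO carcinoma 1 being the lowest. The log2 fold change was 0.23 (95% interval -1.34 to 1.80, standard error 0.67, edgeR adjusted p = 0.923), and with 1 tumor left out -0.19 (without *Lats2*-CKO 8) to 0.88 (without WT-PyMT 1). In the *Lats1* experiment *Aldh1a3* had 20.6, 10.95, 22.9 and 50.8 CPM in *Lats1*-CKO tumors 14, 18, 21 and 27, against 23.0, 36.0 and 21.9 CPM in WT-PyMT tumors 17, 20 and 22. There an adenoma, *Lats1*-CKO 27, was highest, and the carcinoma *Lats1*-CKO 18 lowest. The log2 fold change was -0.035 (95% interval -1.17 to 1.10, standard error 0.48, edgeR adjusted p = 0.987).

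*Ltf* encodes lactoferrin, an iron-binding protein secreted into milk that is also stored in neutrophil granules (chr9:111019271-111042767, plus strand). It had 27.3, 4475, 1092 and 5582 CPM in *Lats2*-CKO tumors 1, 7, 8 and 16, against 2786, 624 and 237 CPM in WT-PyMT tumors 1, 2 and 14. The *Lats2*-CKO group held both the highest and the lowest tumor of the series, which differed 204-fold, and the 3 WT-PyMT tumors lay between them. Means were 2794 ± 2655 CPM in *Lats2*-CKO and 1216 ± 1374 CPM in WT-PyMT tumors (SD, n = 4 and 3). The log2 fold change of 1.20 (95% interval -2.24 to 4.64, standard error 1.47, edgeR adjusted p = 0.822) is the largest of the 6 and the least precise. With 1 tumor left out it was 0.62 (without *Lats2*-CKO 16) to 2.68 (without WT-PyMT 1), and 0.71 without WT-PyMT 14. In the *Lats1* experiment *Ltf* had 1595, 526, 838 and 378 CPM in *Lats1*-CKO tumors 14, 18, 21 and 27, against 1284, 1105 and 972 CPM in WT-PyMT tumors 17, 20 and 22. The carcinoma *Lats1*-CKO 14 was above all WT-PyMT tumors and the other 3 were below them, with a log2 fold change of -0.43 (95% interval -1.50 to 0.65, standard error 0.46, edgeR adjusted p = 0.758). With 1 tumor left out it was -0.94 (without *Lats1*-CKO 14) to -0.18 (without *Lats1*-CKO 27), the lowest of these without a call (adjusted p = 0.461 from edgeR). The neutrophil list (7 genes measured of 10 in the first table and 8 in the other, with 2 to 6 at 0 in each library) had a summed level of 9.11 to 32.9 CPM in *Lats2*-CKO and 5.80 to 13.0 CPM in WT-PyMT tumors of the first experiment, and 14.5 to 159.8 CPM in *Lats1*-CKO and 10.9 to 16.98 CPM in WT-PyMT tumors of the other. The highest was the adenosquamous *Lats1*-CKO 21, where *S100a8* alone had 137 CPM. *Lats2*-CKO 16, with the most *Ltf*, had 11.5 CPM over the whole list, and *Lats2*-CKO 7, with the next most, had 32.9 CPM. The part of neutrophils in the *Ltf* values was not tested.

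**Figure D1:**
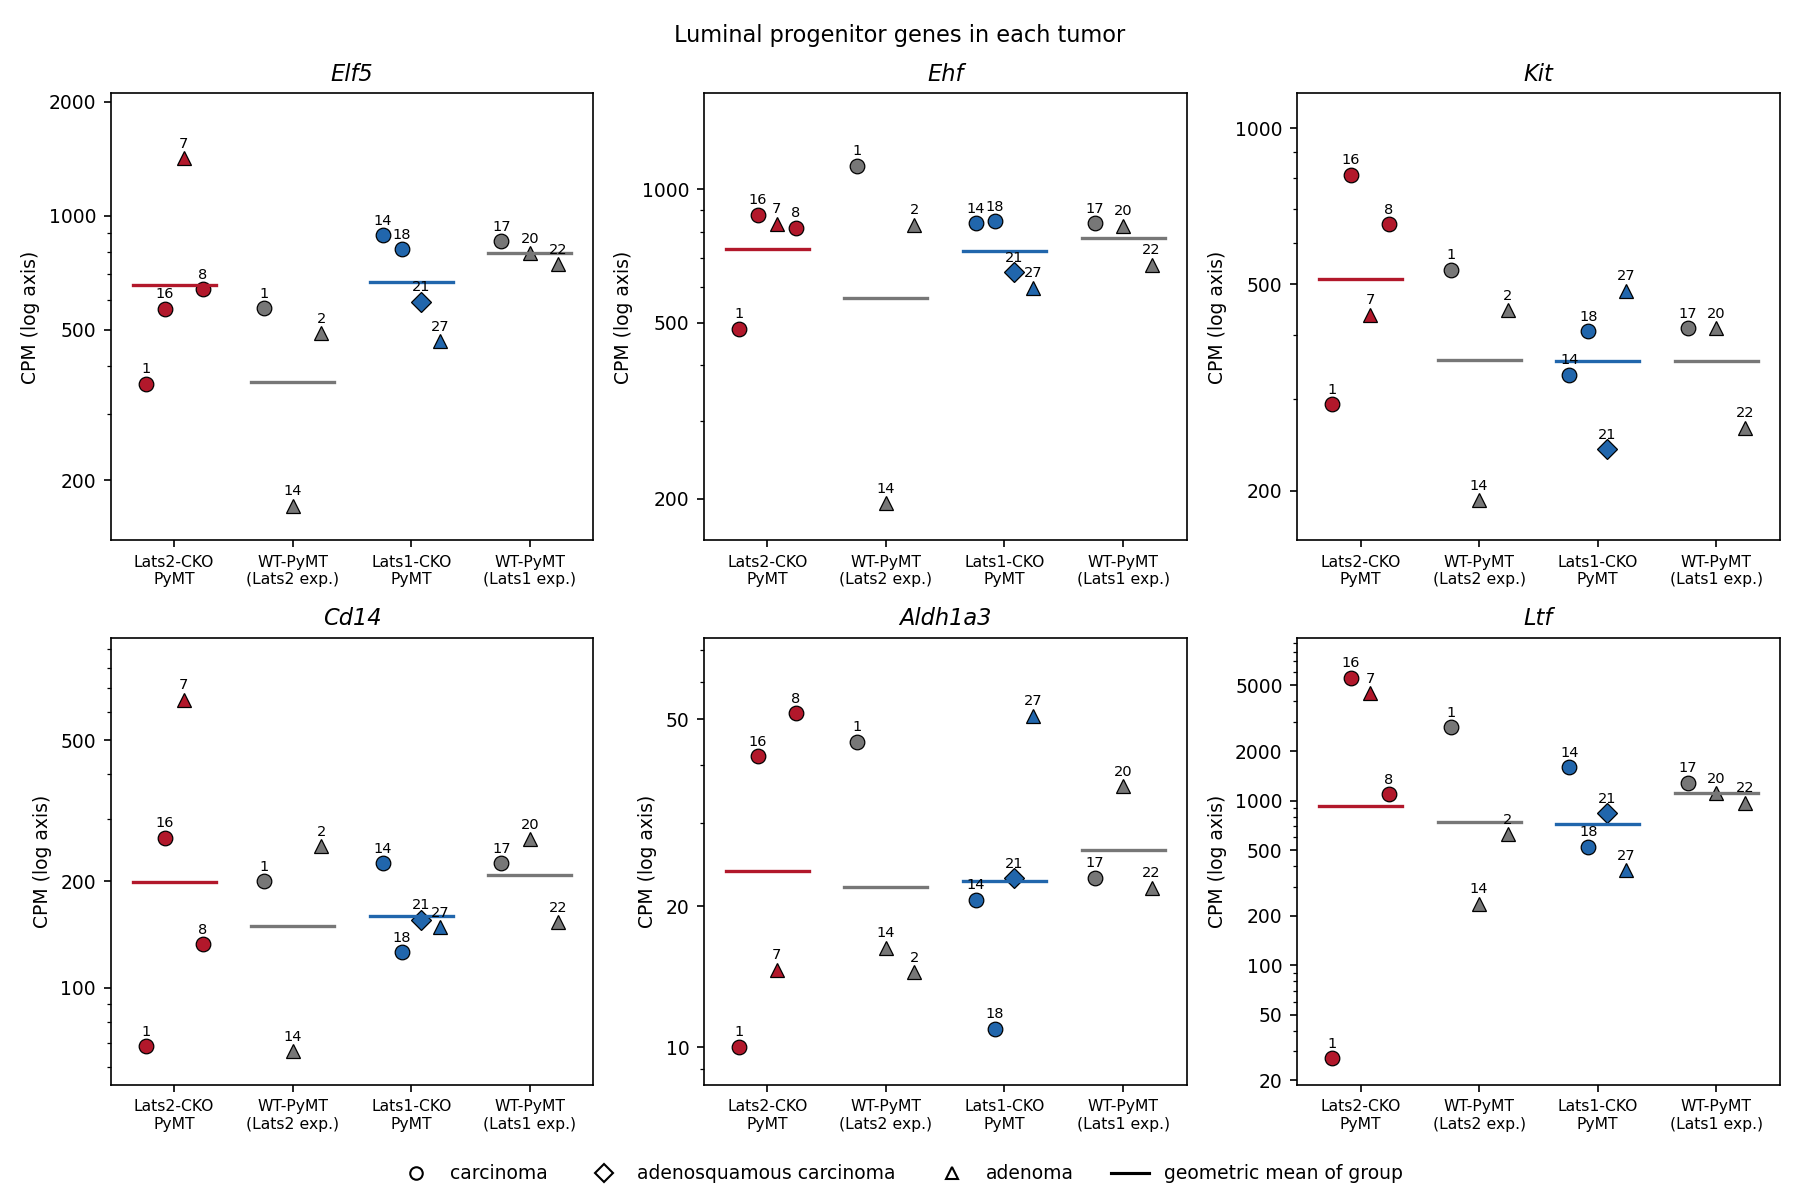
Level of each luminal progenitor gene in each of the 14 tumors, in CPM with TMM scaling on a log axis, by group, with the tumor number above each point, shapes for histology and a line at the geometric mean of the group. CKO and WT-PyMT tumors overlap for all 6 genes, and *Ltf* spans 27.3 to 5582 CPM within *Lats2*-CKO tumors alone.

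Ranked by group mean, *Ltf* was highest in *Lats2*-CKO tumors (2794 CPM), then WT-PyMT tumors of the *Lats2* experiment (1216 CPM), then WT-PyMT tumors of the *Lats1* experiment (1120.0 CPM), and lowest in *Lats1*-CKO tumors (834 CPM). *Cd14* was highest in *Lats2*-CKO tumors (279 CPM), then WT-PyMT tumors of the *Lats1* experiment (213 CPM), then WT-PyMT tumors of the *Lats2* experiment (172 CPM), and lowest in *Lats1*-CKO tumors (164 CPM). *Elf5* was highest in WT-PyMT tumors of the *Lats1* experiment (799 CPM), then *Lats2*-CKO tumors (747 CPM), then *Lats1*-CKO tumors (690.4 CPM), and lowest in WT-PyMT tumors of the *Lats2* experiment (410.2 CPM). For *Kit*, *Ehf* and *Aldh1a3* the 4 means spanned 363 to 549, 719 to 780.0 and 25.2 to 29.5 CPM. Over the 4 groups, 35 of 36 pairs (6 pairs of groups for each gene) overlapped, beside 14.3% of such pairs over all genes that did not. The pair that did not, which are no neighbours in the order above, was *Elf5* in the WT-PyMT tumors of the 2 experiments, where the *Lats1* experiment (799 ± 55.9 CPM, n = 3) lay above the *Lats2* experiment (410.2 ± 211 CPM, n = 3). The experiments were sequenced and scaled separately, so lane and group cannot be told apart there. Of the 6 genes, 4 were lowest in WT-PyMT 14 among the 7 tumors of its experiment. When each level was set against the mean of the epithelial list in the same library, WT-PyMT 14 lay within the range of 12 other tumors for 6 of 6 genes. *Lats2*-CKO 1 did so for 4 of 6, with *Ltf* at -3.05 (log2 of *Ltf* over the epithelial mean, 0.32 to 4.07 in the 12) and *Cd14* at -1.72 (-1.37 to 0.71). With both these libraries left out, a choice made after the values were seen, the log2 fold changes in the *Lats2* comparison were 0.75 (*Elf5*), -0.20 (*Ehf*), 0.40 (*Kit*), 0.66 (*Cd14*), 0.30 (*Aldh1a3*) and 1.139 (*Ltf*), none of which passed edgeR's test.

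The change in *Lats1*-CKO tumors was then set against that in *Lats2*-CKO tumors, each relative to its own WT-PyMT littermates, in a fit of 14 libraries (*Lats1*-CKO minus *Lats2*-CKO). Each of the 6 genes had a negative difference, with a median of -0.75 on the log2 scale beside 0.074 over all genes. None of the 6 passed edgeR's test, which called 0.0174% of 17232 genes, and 0 of the 6 had an unadjusted p under 0.05, beside 339 genes with a positive and 206 with a negative difference (3.16%). DESeq2 called 0 of the 6 and 16 genes in all. The difference was -1.04 (95% interval -2.45 to 0.36, standard error 0.65, edgeR adjusted p = 0.913) for *Elf5*. That of *Cd14* was -1.04 (standard error 0.88, 95% interval -2.97 to 0.88) and that of *Ltf* was -1.59 (standard error 1.62, 95% interval -5.12 to 1.93). *Kit* (-0.45, 95% interval -1.66 to 0.76), *Aldh1a3* (-0.23, -2.17 to 1.71) and *Ehf* (-0.13, -1.43 to 1.181) lay nearer to 0. The difference of *Ehf* was 0.32 without WT-PyMT 14, of opposite sign. With 1 library left out the difference was -1.36 (without WT-PyMT 1) to -0.53 (without *Lats2*-CKO 7) for *Elf5*, -1.41 (without WT-PyMT 2) to -0.20 (without *Lats2*-CKO 7) for *Cd14*, -3.09 (without WT-PyMT 1) to -1.04 (without *Lats2*-CKO 16) for *Ltf* and -0.74 (without WT-PyMT 1) to -0.12 (without WT-PyMT 14) for *Kit*. All 6 intervals contain 0 and negative differences of more than 2-fold, and those of *Ltf*, *Aldh1a3* and *Ehf* also positive ones. Some other lists had the same sign. The difference was negative for 10 of 10 milk genes (median -3.47, 4 at an unadjusted p under 0.05). So it was for 8 of 10 epithelial genes (median -0.37) and 7 of 7 proliferation genes (median -0.37). Further lists had the opposite sign. The difference was positive for 10 of 10 adipocyte (median 2.25) and 10 of 10 T and NK cell genes (0.73). It was also positive for 7 of 8 B and plasma cell (3.11), 7 of 7 endothelial (1.06) and 7 of 7 fibroblast genes (0.68). Neutrophil genes (7 of 7 measured, 2.57) and basal genes (7 of 10, 0.48) were mostly positive too. No gene of these lists passed edgeR's test. Their part in the values of the 6 genes was not tested.

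Adenomas and carcinomas occurred in every group, so the 8 carcinomas, the adenosquamous one included, could be compared with the 6 adenomas with the 4 groups as covariates. *Ltf* had 27.3 to 5582 CPM with a median of 1188 in carcinomas and 237 to 4475 CPM with a median of 798 in adenomas. *Ehf* had 484 to 1130.3 CPM with a median of 838 in carcinomas and 195 to 836 CPM with a median of 751 in adenomas. The ranges overlapped, and the log2 fold changes were 0.73 for *Ltf* (standard error 0.91, 95% interval -1.26 to 2.72) and 0.36 for *Ehf* (0.32, -0.34 to 1.06). Those of *Kit*, *Aldh1a3*, *Elf5* and *Cd14* were 0.19, 0.11, -0.050 and -0.48, with standard errors of 0.30, 0.51, 0.36 and 0.46. With 1 library left out, *Ltf* was 0.072 (without WT-PyMT 1) to 1.56 (without *Lats2*-CKO 7) and *Ehf* 0.11 (without WT-PyMT 1) to 0.57 (without *Lats2*-CKO 7). Without the adenoma *Lats2*-CKO 7, *Cd14* was 0.22 and *Elf5* was 0.57. None of the 6 genes passed edgeR's test (lowest adjusted p = 0.928), which called 0% of 17232 genes. At an unadjusted p under 0.05 it counted 0 of the 6, beside 238 genes higher and 375 lower (3.56%), and DESeq2 called 0 of the 6 and 44 genes in all. The median over the 6 was 0.15, beside -0.015 over all genes.

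**Figure D2:**
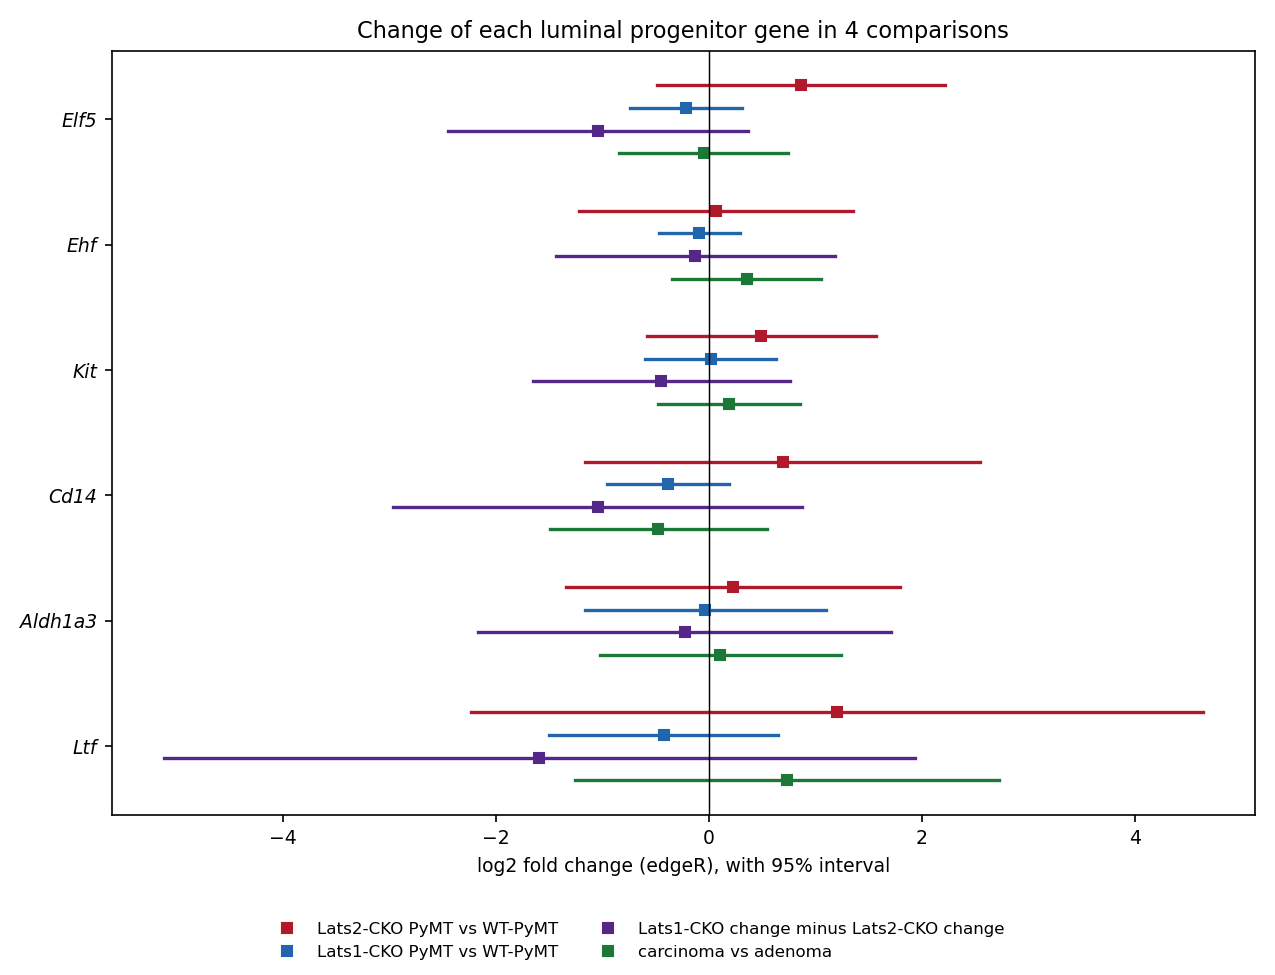
Fitted log2 fold change of each luminal progenitor gene (squares) with its 95% interval (lines) in 4 comparisons, in which positive values mean higher in *Lats2*-CKO, in *Lats1*-CKO, in the *Lats1*-CKO change or in carcinoma. Every interval crosses 0, and those of the *Lats1* comparison, such as -0.47 to 0.30 for *Ehf*, are narrower than those of the *Lats2* comparison, such as -1.22 to 1.35 for the same gene.

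Correlations between members were taken across the 14 tumors, each experiment centred on its own mean. Pearson r of log2 CPM was above 0 in 15 of 15 pairs, with a median of 0.61. Of these, 4 pairs passed an adjusted permutation p of 0.05, against 5 by Spearman rho. The share of such pairs over all genes was not counted, and genes outside the list reached higher r, such as *Ocln* with *Ehf* (0.98). WT-PyMT 14 was low in the epithelial list (mean log2 CPM 6.62, and 7.82 or more in every other tumor). The part of epithelial content in these correlations was not tested. *Elf5* and *Ehf*, the neighbouring ETS genes, had Pearson r = 0.80 (permutation p = 0.00777, adjusted p = 0.0377 over 15 pairs) and Spearman rho = 0.70 (permutation p = 0.00431, adjusted p = 0.0303). *Cd14* and *Ltf* had Pearson r = 0.80 (permutation p = 0.010, adjusted p = 0.0377 over 15 pairs) and Spearman rho = 0.77 (permutation p = 0.00878, adjusted p = 0.0323). *Elf5* and *Cd14* had Pearson r = 0.83 (permutation p = 0.00425, adjusted p = 0.0377 over 15 pairs) and Spearman rho = 0.46 (permutation p = 0.140, adjusted p = 0.233), so the ranks did not bear out that pair. *Kit* and *Ehf* had Pearson r = 0.77 (permutation p = 0.00803, adjusted p = 0.0377 over 15 pairs) and Spearman rho = 0.60 (permutation p = 0.0369, adjusted p = 0.0790). At the other end *Aldh1a3* and *Elf5* had Pearson r = 0.038 (permutation p = 0.913, adjusted p = 0.913 over 15 pairs) and Spearman rho = 0.13 (permutation p = 0.675, adjusted p = 0.675). *Aldh1a3* was nearest to *Kit*, with Pearson r = 0.61 (permutation p = 0.0380, adjusted p = 0.114 over 15 pairs) and Spearman rho = 0.73 (permutation p = 0.0108, adjusted p = 0.0323). *Ltf* with the ETS genes likewise passed by rank only. *Ehf* and *Ltf* had Pearson r = 0.62 (permutation p = 0.106, adjusted p = 0.182 over 15 pairs) and Spearman rho = 0.78 (permutation p = 0.00270, adjusted p = 0.0303). *Elf5* and *Ltf* had Pearson r = 0.66 (permutation p = 0.0791, adjusted p = 0.170 over 15 pairs) and Spearman rho = 0.75 (permutation p = 0.00607, adjusted p = 0.0303).

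These calls were lost without 1 tumor. With WT-PyMT 14 left out, a choice made after the values were seen, 0 of 15 pairs passed the permutation test by r and 0 by rho (lowest adjusted p of r = 0.0914), and r was 0.54 for *Elf5* and *Ehf*, 0.80 for *Cd14* and *Ltf*, 0.78 for *Elf5* and *Cd14* and 0.53 for *Kit* and *Ehf*. With the 2 tumors farthest from the median of the first gene left out, which included WT-PyMT 14 in these 4 pairs, r was 0.80, 0.82, 0.53 and 0.55 in the same order of pairs. For *Kit* and *Aldh1a3* it was 0.63, and for *Aldh1a3* and *Elf5* it was 0.11. Within the experiments, of 7 tumors each, *Elf5* and *Ehf* had r = 0.80 in the *Lats2* and 0.92 in the *Lats1* experiment (exact permutation p = 0.0442 and 0.00218), and *Cd14* and *Ltf* had 0.81 and 0.77 (exact permutation p = 0.0254 and 0.0486). The other pairs named above varied more. *Kit* and *Ehf* had r = 0.87 in the *Lats2* and 0.25 in the *Lats1* experiment, *Elf5* and *Cd14* 0.87 and 0.48, *Kit* and *Aldh1a3* 0.73 and 0.32, and *Aldh1a3* and *Elf5* 0.21 and -0.62. Whether the experiments differ in these values was not tested. Over the 15 pairs r was positive in 15 in the *Lats2* and in 10 in the *Lats1* experiment, and adjusted over the pairs 0 and 1 passed the exact permutation test.

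**Figure D3:**
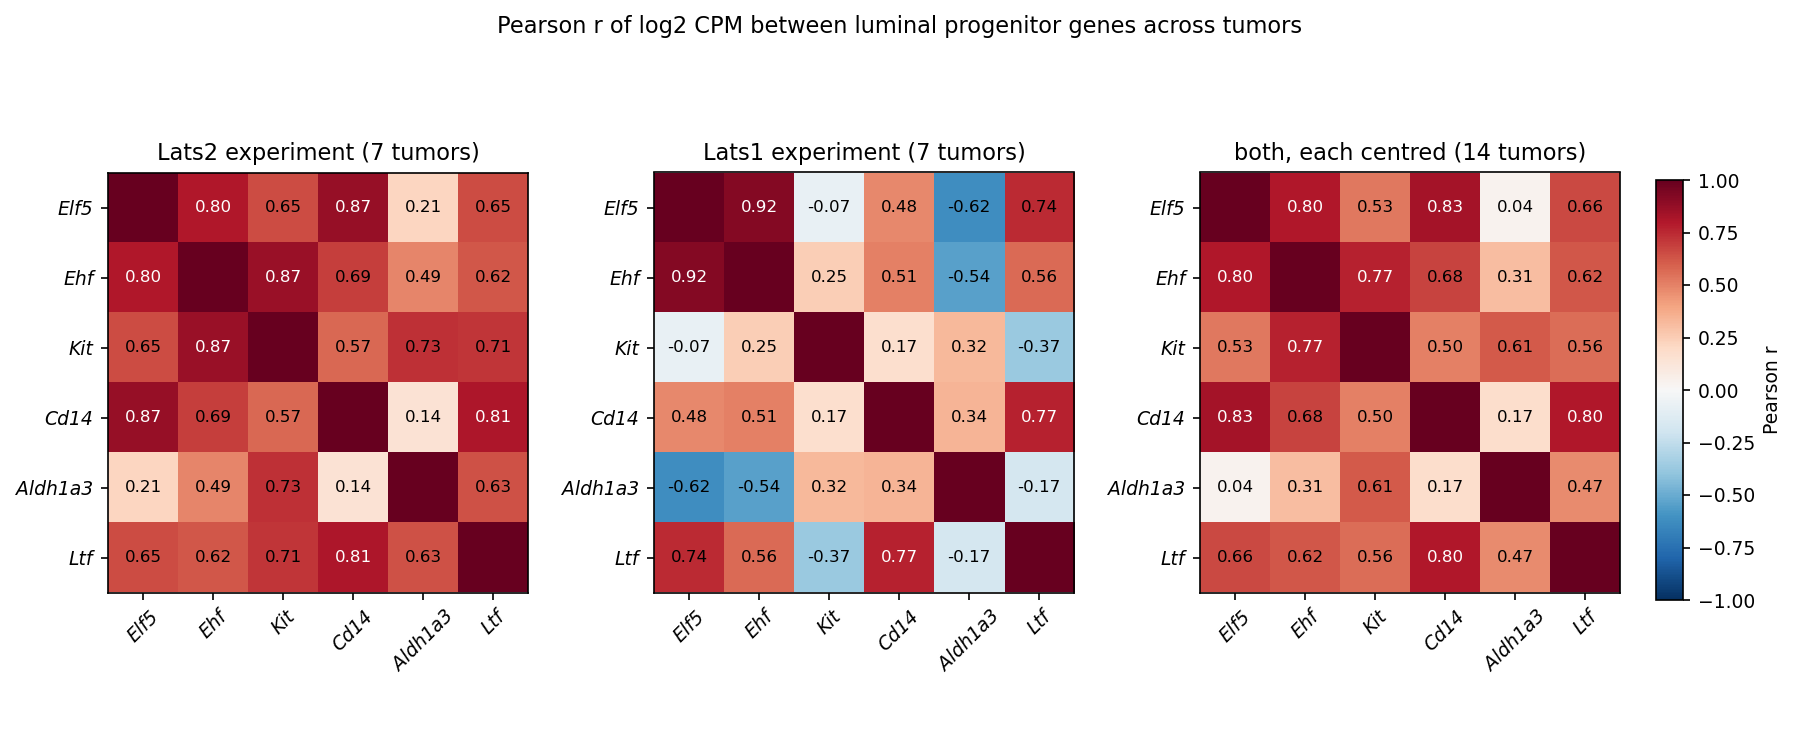
Pearson r of log2 CPM for each pair of luminal progenitor genes across the 7 tumors of the *Lats2* experiment (left), the 7 of the *Lats1* experiment (middle) and all 14 with each experiment centred (right), from blue at -1 to red at 1. *Elf5* with *Ehf* and *Cd14* with *Ltf* lie at 0.77 to 0.92 over the 3 panels, while *Aldh1a3* with *Elf5* is 0.21 on the left and -0.62 in the middle.

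Among 13460 genes with a mean of at least 1 CPM in both experiments, those (up to 3) whose centred log2 CPM was most like each member over the 14 tumors were ranked by Pearson r. This is a description, in which tumors of 1 group share a genotype and all genes of a tumor share 1 library and its share of epithelium. The genes were picked by r in these same tumors, so their r within an experiment or without a tumor is no separate check. Next to *Kit* were *Tspan8* (0.93), *Ankrd42* (0.92) and *Kitl* (0.92), the gene of stem cell factor itself, whose r with *Kit* was 0.93 and 0.87 within the *Lats2* and *Lats1* experiments and 0.86 without WT-PyMT 14. *Kitl* had 104, 92.5, 157 and 226 CPM in *Lats2*-CKO tumors 1, 7, 8 and 16. WT-PyMT tumors 1, 2 and 14 had 151, 142 and 58.7 CPM. In *Lats2*-CKO 7 *Kitl* was lower than in *Lats2*-CKO 1, while *Kit* was higher (437 against 294 CPM). Next to *Ehf* were *Ocln* (0.98), which encodes the tight junction protein occludin, *Coq4* (0.98) and *Unc13b* (0.98). Next to *Elf5* were *Gmds* (0.95), *Xdh* (0.94), the xanthine oxidoreductase that coats milk fat droplets, and *Hdac3* (0.94). Without WT-PyMT 14, which was low in epithelial genes, the r of these 6 genes with *Ehf* or *Elf5* was 0.89 to 0.94. *Cd14* came with *Bend7* (0.92) and *Rfk* (0.91), and *Aldh1a3*, with the weakest neighbours, with *Hs3st1* (0.82), *Pcdhgb4* (0.82) and *Hus1* (0.79). *Ltf* came with *2410017I17Rik* (0.91), *Kctd6* (0.90) and *Fbxw7* (0.90). Within the *Lats2* and *Lats1* experiments the r of *Kctd6* with *Ltf* was 0.96 and 0.13, and that of *Fbxw7* was 0.94 and 0.94.

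A wider list of 11 genes used for the same cells, all measured, went alongside. It holds the Notch receptors *Notch1* and *Notch3* and the Notch target *Hey1*, the transcription factor *Sox10*, the integrins *Itga2* and *Itgb3*, the GABA receptor subunit *Gabrp*, and the secreted proteins *Lbp*, *Lcn2*, *Mfge8* and *Wfdc18*. In the *Lats2* comparison all 11 had a positive log2 fold change, with a median of 0.57. For each gene but *Mfge8*, WT-PyMT 14 was the lowest tumor of that experiment. None of the 11 passed edgeR's test. At an unadjusted p under 0.05 there was 1, *Mfge8*, the gene of the milk fat globule protein lactadherin, with 4869.9, 2259, 1175 and 1908 CPM in *Lats2*-CKO tumors 1, 7, 8 and 16, against 1138, 802 and 817 CPM in WT-PyMT tumors 1, 2 and 14. The *Lats2*-CKO tumors were all above the WT-PyMT tumors, with a log2 fold change of 1.47 (standard error 0.53, unadjusted p = 0.0251, adjusted p = 0.688 from edgeR). *Lcn2*, an iron-scavenging lipocalin, likewise did not overlap, with 5232, 5744, 3941 and 5025 CPM in *Lats2*-CKO tumors 1, 7, 8 and 16, against 3698, 2419.8 and 545 CPM in WT-PyMT tumors 1, 2 and 14, and had a log2 fold change of 1.17 (edgeR adjusted p = 0.704, standard error 0.64). In the *Lats1* comparison 4 were positive and 7 negative, with a median of -0.072. At an unadjusted p under 0.05 were *Itgb3*, the integrin β3 subunit, with 63.2, 83.3, 63.5 and 90.5 CPM in *Lats1*-CKO tumors 14, 18, 21 and 27, against 105, 133 and 103 CPM in WT-PyMT tumors 17, 20 and 22, and *Wfdc18*, with 1117, 1521, 487 and 1120.1 CPM in *Lats1*-CKO tumors 14, 18, 21 and 27, against 2355, 1764 and 2264 CPM in WT-PyMT tumors 17, 20 and 22. In both cases every *Lats1*-CKO tumor lay below every WT-PyMT tumor, with log2 fold changes of -0.60 (standard error 0.17, adjusted p = 0.305 from edgeR) and -1.0 (standard error 0.35, adjusted p = 0.391 from edgeR). Over all genes, groups did not overlap for 3.69% in the *Lats2* and 11.3% in the *Lats1* comparison. An unadjusted p under 0.05 from edgeR was found for 7.08% and 11.3% of all genes. The other log2 fold changes of the 11 genes ran from 0.013 (*Notch1*) to 0.81 (*Lbp*) in the *Lats2* comparison. In the *Lats1* comparison they ran from -0.40 (*Notch1*) to 0.82 (*Mfge8*). The difference of the 2 changes (*Lats1*-CKO minus *Lats2*-CKO) was negative for all 11 (median -0.62), without a call, and WT-PyMT 14, low in epithelial genes, is among the 3 controls of the *Lats2* comparison. *Sox10*, for example, had 593, 615, 594 and 801 CPM in *Lats2*-CKO tumors 1, 7, 8 and 16. In WT-PyMT tumors 1, 2 and 14 it had 881, 516 and 139 CPM. The part of WT-PyMT 14 in the signs of this list was not tested.

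**Figure D4:**
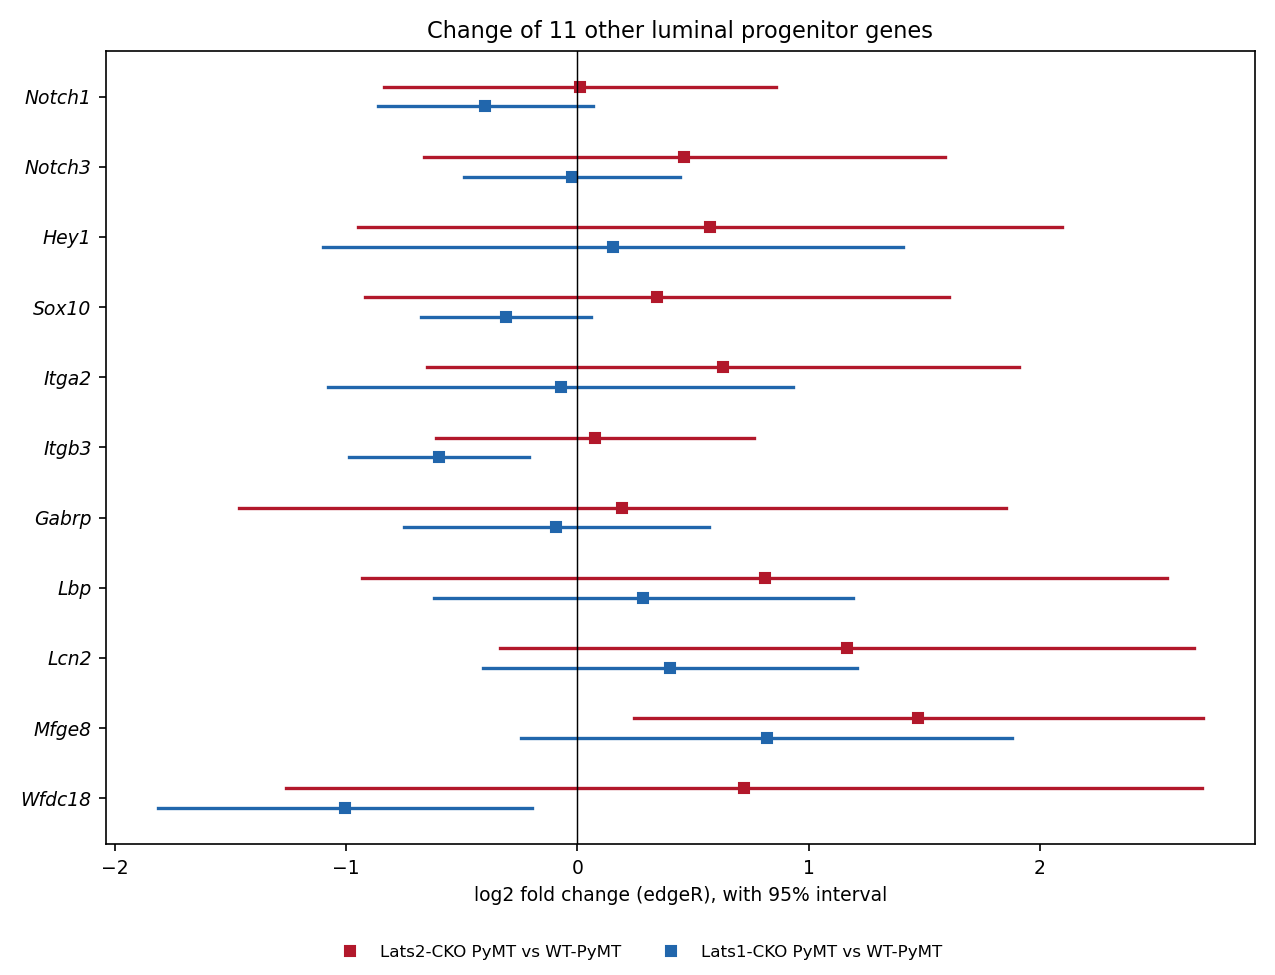
Fitted log2 fold change (squares) with 95% interval (lines) of 11 other luminal progenitor genes in *Lats2*-CKO and in *Lats1*-CKO tumors relative to their WT-PyMT tumors. All 11 are positive in the *Lats2* comparison, where WT-PyMT 14 was the lowest tumor for each gene but *Mfge8*. Intervals exclude 0 only for *Mfge8* in *Lats2*-CKO and for *Itgb3* and *Wfdc18* in *Lats1*-CKO, none of which passed the adjusted test.

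The pathways in which the members act were followed with 6 further lists, in which no gene passed edgeR's test in any of the 4 comparisons. In stem cell factor signaling (10 genes) the median log2 fold change was -0.0069 in the *Lats2* and -0.049 in the *Lats1* comparison, and no gene had an unadjusted p under 0.05. The most abundant beside *Kit* and *Kitl* were *Pik3r1*, a subunit of PI3 kinase (log2 fold changes 0.47 with standard error 0.42 in *Lats2*-CKO and -0.41 with 0.25 in *Lats1*-CKO tumors), and *Ptpn11*, the phosphatase SHP2 (0.15 with standard error 0.14 in *Lats2*-CKO and 0.061 with 0.11 in *Lats1*-CKO tumors). *Kitl* itself had 0.30 with standard error 0.43 in *Lats2*-CKO and 0.14 with 0.27 in *Lats1*-CKO tumors. In lipopolysaccharide recognition (9 genes) it was 0.33 in the *Lats2* and -0.10 in the *Lats1* comparison, again without one. The adaptors *Irak1* and *Myd88* had log2 fold changes of -0.24 and 0.26 in *Lats2*-CKO and -0.15 and -0.031 in *Lats1*-CKO tumors. *Tlr4*, the receptor that CD14 serves, had log2 fold changes of 0.33 (standard error 0.35) in *Lats2*-CKO and 0.11 (0.20) in *Lats1*-CKO tumors, and its partner *Ly96* 0.19 (0.25) and -0.13 (0.24). Among 14 genes of retinoic acid metabolism and receptors the medians were 0.037 in the *Lats2* and 0.21 in the *Lats1* comparison. With an unadjusted p under 0.05 there was 1 gene in the *Lats2* comparison, and in the *Lats1* comparison *Crabp2*, which binds retinoic acid (log2 fold change -0.77, standard error 0.31), and *Cyp26b1*, which degrades it (1.85, 0.77). Over all genes 7.08% had such a p in the *Lats2* and 11.3% in the *Lats1* comparison. The counts in this list, and in the iron list below, are near those shares. The receptor gene *Rarg* had 0.18 with standard error 0.22 in *Lats2*-CKO and 0.26 with 0.17 in *Lats1*-CKO tumors, and the retinal reductase *Dhrs3* had 0.016 with standard error 0.34 in *Lats2*-CKO and 0.031 with 0.36 in *Lats1*-CKO tumors. Among 9 genes of iron binding and transport the medians were 0.67 in the *Lats2* and -0.19 in the *Lats1* comparison. The iron transporter *Slc11a2* had an unadjusted p under 0.05 in the *Lats1* comparison (log2 fold change -0.31, standard error 0.12). In the *Lats2* comparison it was the hepcidin gene *Hamp*, with 1 count in *Lats2*-CKO 8 and 27 in WT-PyMT 14 and 0 in the other 5 tumors, a value that rests on 1 library. *Trf*, which encodes transferrin, had 0.82 with standard error 0.80 in *Lats2*-CKO and 0.014 with 0.52 in *Lats1*-CKO tumors, and *Fth1*, the ferritin heavy chain, had 1.29 with standard error 0.60 in *Lats2*-CKO and 0.70 with 0.31 in *Lats1*-CKO tumors.

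A list of prolactin signaling genes and alveolar regulators holds 10 genes, *Elf5* among them. The median was -0.11 in the *Lats2* and -0.27 in the *Lats1* comparison, and 4 had, beside no call, an unadjusted p under 0.05 in the *Lats1* comparison, all lower in *Lats1*-CKO tumors, in a comparison where 11.3% of all genes had one. *Stat5a*, the transcription factor that prolactin activates, had 93.8, 84.7, 111 and 65.0 CPM in *Lats1*-CKO tumors 14, 18, 21 and 27, against 204, 180.4 and 151 CPM in WT-PyMT tumors 17, 20 and 22, a log2 fold change of -1.01 (standard error 0.19, unadjusted p = 0.000876, adjusted p = 0.184 from edgeR). *Stat5b* (-0.60, standard error 0.11), and the transcriptional regulators *Id2* (-0.74, 0.19) and *Gata3* (-0.51, 0.18), which are not part of prolactin signaling itself, were the others. *Elf5* itself, at -0.21, was not among them, nor was the most abundant gene of the list, *Nfib* (0.33, 0.24). In the list of hormone-sensing luminal cells, the other luminal type, 10 of 10 genes were lower in *Lats1*-CKO tumors (median -1.25, 7 at an unadjusted p under 0.05) and 10 of 10 in *Lats2*-CKO tumors (median -1.20, 1 at an unadjusted p under 0.05, beside 7.08% of all genes), without a call. Its part in these values was not tested. Of the 7 epithelial ETS factors, *Spdef* had 2.95, 7.35, 17.1 and 9.49 CPM in *Lats1*-CKO tumors 14, 18, 21 and 27, against 28.4, 34.4 and 27.6 CPM in WT-PyMT tumors 17, 20 and 22, with a log2 fold change of -1.71 (edgeR adjusted p = 0.324, standard error 0.50), while *Etv5* had 0.59 (0.45) and *Etv1* -0.66 (0.56). The median of the ETS list was 0.39 in the *Lats2* and -0.088 in the *Lats1* comparison. The milk gene list was highest in tumor 7 of the *Lats2*-CKO group. Its summed level was 77705 CPM there and 2758 to 11309 CPM in WT-PyMT tumors of that experiment. That tumor was also the highest in *Elf5* and *Cd14* and the next to highest in *Ltf*.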

How the data were processed

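Polyadenylated RNA was sequenced as single-end 60-base reads, 7 libraries to a lane. The authors deposited raw counts for each RefSeq gene of mm10, mapped with STAR, whose version and strand setting are not given in the sources used here. No values were normalized before deposit; each table holds genes with a sum of at least 6 counts. CPM with TMM scaling, log2 CPM (prior count 2) and RPKM (exon bases of GENCODE M21, GRCm38, matched once by symbol for 17493 of 18233 genes) were computed in R 4.3.3 with edgeR 4.0.16.

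*Lats2*-CKO and *Lats1*-CKO tumors were each set against their littermates by edgeR's quasi-likelihood test, adjusted over all genes of the table (threshold 0.05). The difference of the changes and carcinoma against adenoma were fitted over 14 libraries. Correlations used 100000 permutations within experiments, or all permutations of 1 experiment. Alternatives were DESeq2 1.42.0 (named in the study's methods), RLE size factors, filterByExpr, a robust fit, covariates for histology or for the epithelial list, 1 fit for both experiments, and fits with libraries left out. A run on simulated counts, with the spread of genes capped and large changes planted, checked the procedure. It does not show the power to find smaller changes at the spread of the members. The members and lists were chosen with earlier results of these data known. Genes named are the members, the wider progenitor list, and *Lats1* and *Lats2*. From other lists they are genes past the test or up to 4 by mean CPM, and for each member up to 3 neighbours. The list genes at an unadjusted p under 0.05 were chosen after their values were seen. Some genes that this rule names are not reported here.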

Additional observations from a re-analysis of the deposited data

Results flagged for a closer look

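*Ehf* in *Lats2*-CKO tumors had 1 tumor far from the other 3. Tumor 1 had 484 CPM and the nearest of the others 818 CPM, a gap of 0.854 of the range of the 4, above Dixon's 95% critical value. Of 16 such tests made in the groups of 4, over the 6 members, *Lats1* and *Lats2*, chance flags about 1 in 20. Tumor 1 is also the *Lats2*-CKO tumor with the least *Ltf* and the most *Lats2*.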

How the results depend on the processing

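No member passed the adjusted threshold in any of the 432 refits (4 comparisons, 6 genes), whose lowest adjusted p was 0.447 from edgeR, and 3 had an unadjusted p under 0.05 (*Cd14* and *Ltf* without *Lats1*-CKO 14, *Cd14* without WT-PyMT 22). Over all genes DESeq2 called 138 in the *Lats2* comparison, 588 in the *Lats1* comparison, 16 in the difference and 44 in carcinoma against adenoma, against 0, 4, 3 and 0 by edgeR. All libraries in 1 fit gave 2 and 1 in the *Lats2* and *Lats1* comparisons, filterByExpr gave 7 in the *Lats1* comparison, and leaving out WT-PyMT 14 and *Lats2*-CKO 1 gave 1 in carcinoma against adenoma. Leaving out 1 library at a time gave 0 to 57 genes in the *Lats2* comparison (57 without WT-PyMT 1, at most 1 otherwise), 0 to 19 in the *Lats1* comparison (19 without *Lats1*-CKO 21, 0 without WT-PyMT 17 or 20, 1 without *Lats1*-CKO 27), 1 to 5 in the difference (5 without WT-PyMT 1, 1 without WT-PyMT 17, 20 or 22) and 0 in each case in carcinoma against adenoma. Correlated pairs numbered 4, 1 without the 2 farthest tumors and 0 without WT-PyMT 14.

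Signs turned in 41 refits, all of values that had passed no test. With histology as covariate *Aldh1a3* was -0.24 and *Ehf* -0.019 in the *Lats2* and *Aldh1a3* 0.20 in the *Lats1* comparison. With the epithelial list as covariate *Ehf* was -0.10 in the *Lats2* comparison, *Kit* -0.16 in the *Lats1* comparison, *Aldh1a3* 0.036 and *Ehf* 0.17 in the difference, and *Aldh1a3* -0.12 in carcinoma. Without WT-PyMT 14 and 22 *Ehf* was 0.17 in the difference, and *Kit* -0.028 and *Aldh1a3* -0.092 in carcinoma. Without WT-PyMT 14 and *Lats2*-CKO 1 *Ehf* was -0.20 in the *Lats2* comparison and 0.15 in the difference. Leaving out 1 library at a time gave, in the *Lats2* comparison, -0.19 to 0.88 (*Aldh1a3*), -0.38 to 0.54 (*Ehf*) and -0.16 to 1.07 (*Cd14*), in the *Lats1* comparison -0.17 to 0.17 (*Kit*) and -0.57 to 0.25 (*Aldh1a3*), in the difference -0.93 to 0.19 (*Aldh1a3*) and -0.61 to 0.32 (*Ehf*), and in carcinoma -0.40 to 0.90 (*Aldh1a3*), -0.32 to 0.57 (*Elf5*) and -0.73 to 0.22 (*Cd14*). The cause of these turns was not tested. *Elf5*, *Kit* and *Ltf* kept a positive sign in the *Lats2* and *Elf5*, *Ehf*, *Cd14* and *Ltf* a negative sign in the *Lats1* comparison in every refit. The lowest count of a member in a library was 216, and groups held 3 or 4 tumors. No paired analysis was made, because the labels do not say which tumors came from mice of the same litter.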
